A study of Homo sapiens with 33 samples.

Results

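RRM2, AURKB and UHRF1 are genes of dividing cells, and they were followed here in a pair of human cell lines with and without tumour necrosis factor (TNF). The members were all spots whose only gene symbol in the platform annotation was 1 of these 3 symbols. This gave 5 of the 34560 cDNA spots on the membrane: 1 spot for RRM2 (29H19), 2 for AURKB (38A02 and 30P08) and 2 for UHRF1 (71H06 and 34G09). No spot with several symbols listed any of the 3 genes. The genes were chosen by the measured difference between the lines in the unstimulated arrays. Values from that comparison are therefore given as a description, without a test.

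The lines were THP-1, a monocytic leukaemia line kept in RPMI medium with 2-mercaptoethanol, and CaCo-2, an adherent colon carcinoma line kept in DMEM with more serum. Each was left unstimulated or exposed to recombinant human TNF-alpha at 5 ng/ml for 60 min, and no genotype was altered. Labelled cDNA was hybridised to nylon membranes, and 22 arrays were used: THP-1 control replicates 1, 2, 3, 4 and 7, THP-1 TNF replicates 1 to 6 and 8, CaCo-2 control replicates 1 to 5, and CaCo-2 TNF replicates 1, 2, 4, 5 and 6. The labels name no separate cultures, so the spread between arrays may be technical. Each line had its own medium and way of growth, so line and culture cannot be told apart. In RNA from whole cultures, more cycling cells and more RNA per cell cannot be told apart either.

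RRM2 is the small subunit of ribonucleotide reductase, which makes deoxyribonucleotides for DNA synthesis and is produced mainly in S phase. AURKB is the kinase of the chromosomal passenger complex, which corrects faulty attachments between chromosomes and spindle and is needed for cytokinesis. UHRF1 recognises hemimethylated DNA behind the replication fork and brings the methyltransferase DNMT1 there. All 3 genes are known targets of the E2F transcription factors and fall when cells leave the cell cycle.

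The short stretches below are shown because they hold letters associated with cell cycle promoters, the CCAAT box and an E2F site. They come from RefSeq on GRCh38.p14, read 5′ to 3′ on the gene's strand, with the matched letters in capitals.

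RRM2, chr2:10122661-10122690, plus strand: ggggcaccaaagCCAATgggaagggccggg

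AURKB, chr17:8210361-8210390, minus strand: accagcgcccagATTGGggctagtgtgctg

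UHRF1, chr19:4909403-4909432, plus strand: ccactgcgtcggCCAATcaggaggcaggcg

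UHRF1, chr19:4909471-4909500, plus strand: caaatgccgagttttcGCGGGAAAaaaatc

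UHRF1, chr19:4909973-4910002, plus strand: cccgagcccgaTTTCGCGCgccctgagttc

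All 3 genes matched the RefSeq table, with 7 start sites between them, and the 250 bases before each start were searched on both strands. CCAAT, or its reverse complement ATTGG, was present in 6 of the 7 windows, against 32% of the 35116 windows in the table. The 7 windows are not all separate, since the same AURKB match was counted for both AURKB starts. Windows of the same gene overlap, except the window before the UHRF1 start at position 4909501, which overlaps no other. The window before the RRM2 start at position 10122739 held 3 copies. The E2F letters searched were TTTCCCGC, TTTCGCGC and TTTGGCGC. They were found in 2 of the 7 windows, both of UHRF1, against 2.32% of all windows. The 5 stretches printed lie inside the annotated span of their own gene, since other transcripts start further upstream: RRM2 spans chr2:10122568-10211010, AURKB chr17:8204731-8210575 and UHRF1 chr19:4903080-4962154. These matches describe the letters of the windows only. Which stretch of its transcript each spot carries is not known here.

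In both conditions the RRM2 spot, the brighter AURKB spot and the brighter UHRF1 spot read higher in CaCo-2 than in THP-1. The values of the TNF-treated arrays did not choose the genes, although earlier results of these data were known when the genes and tests were chosen. In these arrays the difference was 15.8% for UHRF1, 14.9% for RRM2 and 6.71% for AURKB. Of these 3 spots UHRF1 passed the test across all spots and the other 2 did not. The dimmer AURKB and UHRF1 spots did not pass either. Levels are log2 intensities after quantile normalization, a scale on which a spot listed at 0 stands at -3.26. Each test is limma's moderated test, two-sided, with p adjusted across the whole membrane by Benjamini-Hochberg, and a spot passed when its adjusted p was under 0.05.

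RRM2 was above 0 on all 22 arrays. In the CaCo-2 TNF arrays 1, 2, 4, 5 and 6 its level was -2.24, -2.37, -2.13, -2.02 and -2.06. In the 7 THP-1 TNF arrays it ran from -2.44 to -2.26 with a median of -2.38. Of the CaCo-2 arrays, 4 lay above every THP-1 array, and replicate 2 fell among them, so the groups overlapped. The difference was 0.20 ± 0.063 (SE, 5 against 7 arrays) with a 95% interval from 0.061 to 0.339, and the adjusted p from limma was 0.222. RRM2 thus did not pass the threshold. It passed in 1 of 10 other settings. When only spots above 0 on every array were fitted, the same difference had an SE of 0.051 and an adjusted p of 0.0407 from limma. The adjusted p from limma was 0.340 with array medians subtracted, 0.649 without normalization and 0.373 with the replicate number as a block.

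In the unstimulated arrays RRM2 stood at -2.29, -2.11, -2.16, -2.21 and -2.06 in CaCo-2 replicates 1 to 5. THP-1 control replicates 1, 2, 3, 4 and 7 stood at -2.40, -2.34, -2.40, -2.44 and -2.40. The lowest CaCo-2 array was above the highest THP-1 array. These arrays chose the genes, so the separation is no result, and 3.97% of 9074 spots above 0 on all of them showed it. As deposited, CaCo-2 was higher in 22 of 25 pairs of arrays. The group means were -2.17 ± 0.088 and -2.40 ± 0.036 (SD, n = 5 each), a difference of 0.23. In order from the top, the 4 group means were CaCo-2 TNF at -2.16, CaCo-2 control at -2.17, THP-1 TNF at -2.36 and THP-1 control at -2.40. Within a line the neighbours in this order lay closer than 1 SD.

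The brighter AURKB spot, 38A02, was also above 0 on every array. Its level in the CaCo-2 TNF arrays 1, 2, 4, 5 and 6 was -1.01, -1.03, -0.92, -0.96 and -0.92. The 7 THP-1 TNF arrays lay between -1.09 and -1.04 with a median of -1.06. No CaCo-2 array reached down to a THP-1 array, so each of the 35 pairs of arrays had the CaCo-2 member higher. Such separation in this direction was found for 2.21% of the 7751 spots above 0 on all arrays of both groups. The difference was small, 0.094 ± 0.022 (SE, 5 against 7 arrays), with a 95% interval from 0.046 to 0.142 and an adjusted p of 0.0821 from limma, which did not pass. It passed in 2 of 10 other settings. With array quality weights the difference was 0.10 with an adjusted p of 0.0315 from limma. With the left-out pair of opposite labels counted as CaCo-2 TNF it was 0.097 with an adjusted p of 0.0469 from limma. With array medians subtracted it fell to 0.039 with an adjusted p of 0.764 from limma. Without normalization it was 0.075 with an adjusted p of 0.767 from limma.

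Unstimulated CaCo-2 arrays 1 to 5 gave -1.02, -0.91, -1.01, -0.99 and -0.98 for this AURKB spot. The THP-1 control arrays 1, 2, 3, 4 and 7 gave -1.07, -1.03, -1.14, -1.11 and -1.11. Here too the groups did not overlap, although the gap between the nearest arrays was slight. Again these arrays chose the genes, and 3.97% of 9074 spots were separated in this way. As deposited, CaCo-2 was higher in 20 of 25 pairs, so the groups overlapped. The means were -0.98 ± 0.045 in CaCo-2 and -1.09 ± 0.044 in THP-1 (SD, n = 5 each), a difference of 0.11.

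The dimmer AURKB spot, 30P08, was listed at 0 on THP-1 control replicates 1 and 2 and on THP-1 TNF replicate 6. On the arrays above 0 the CaCo-2 TNF levels were -2.13, -2.11, -2.12, -2.14 and -2.09 for replicates 1, 2, 4, 5 and 6. The 6 THP-1 TNF arrays above 0 ran from -2.24 to -2.10 with a median of -2.22, and replicate 8 overlapped the CaCo-2 arrays. With 0 at the floor the difference was 0.24 ± 0.175 (SE) with an adjusted p of 0.621 from limma. With 0 taken as missing it was 0.078 ± 0.019 (SE) with an adjusted p of 0.0836. Both values are above 0 and neither passed, and the size rests on how the 1 reading at 0 was treated. In the unstimulated arrays the 5 CaCo-2 values, -2.11, -2.03, -2.14, -2.15 and -2.08, lay above the 3 THP-1 values above 0, which were -2.19, -2.19 and -2.20. This held after normalization only. As deposited, CaCo-2 was higher in 5 of the 15 pairs of these arrays, and 3 of the 5 CaCo-2 values lay below all 3 THP-1 values.

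For UHRF1 the brighter spot, 71H06, was above 0 on every array. The CaCo-2 TNF arrays 1, 2, 4, 5 and 6 stood at -1.72, -1.58, -1.57, -1.62 and -1.60. The 7 THP-1 TNF arrays ran from -1.89 to -1.71 with a median of -1.86. CaCo-2 replicate 1 lay just under THP-1 replicate 8, so the groups overlapped in 1 of 35 pairs. The difference was 0.21 ± 0.043 (SE, 5 against 7 arrays) with a 95% interval from 0.117 to 0.306. It passed with an adjusted p of 0.0424 from limma.

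Of the 5 member spots, this UHRF1 spot was 1 that passed, against 1.25% of all 34560 spots, or 0.709% counting those higher in CaCo-2. The call was close to the threshold. It was kept in 6 of 10 other settings and lost in 4, with adjusted p-values from limma of 0.270 with array medians subtracted, 0.641 without normalization, 0.0513 with all 4 groups in 1 fit and 0.239 with the replicate number as a block. Leaving out 1 array kept the call without THP-1 TNF replicate 8 (adjusted p = 0.0249) or CaCo-2 TNF replicate 1 (adjusted p = 0.0400). It was lost in the 10 other cases, where the difference was between 0.199 and 0.228 and the adjusted p between 0.0506 and 0.0950.

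Unstimulated CaCo-2 arrays 1 to 5 gave -1.69, -1.34, -1.47, -1.58 and -1.54 for this UHRF1 spot. The THP-1 control arrays 1, 2, 3, 4 and 7 gave -1.84, -1.76, -1.86, -1.84 and -1.89, all below the CaCo-2 arrays. Such separation was found for 3.97% of 9074 spots, in arrays that chose the genes. As deposited, CaCo-2 was higher in 20 of 25 pairs, so the groups overlapped. The group means were -1.53 ± 0.131 and -1.84 ± 0.049 (SD, n = 5 each), a difference of 0.31. From the top the order of means was CaCo-2 control at -1.53, CaCo-2 TNF at -1.62 ± 0.061, THP-1 TNF at -1.83 ± 0.076 and THP-1 control at -1.84. Within each line the means lay closer than 1 SD of the control arrays.

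The other UHRF1 spot, 34G09, did not show the pattern. It was the dimmest of the 5 spots and was listed at 0 on THP-1 TNF replicate 8 and CaCo-2 TNF replicates 2 and 5. The CaCo-2 TNF arrays above 0 stood at -2.69, -2.64 and -2.63, inside the range of the 6 THP-1 TNF arrays above 0, -2.75 to -2.58. The difference was -0.14 ± 0.158 (SE) with an adjusted p of 0.712 from limma, and -0.020 ± 0.033 (SE) with an adjusted p of 0.792 with 0 taken as missing. Unstimulated CaCo-2 arrays gave -2.69, -2.69, -2.76, -2.76 and -2.53 and THP-1 arrays -2.66, -2.65, -2.69, -2.73 and -2.63, a difference of -0.011. The UHRF1 spots therefore gave different pictures of the same gene.

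**Figure D1:**
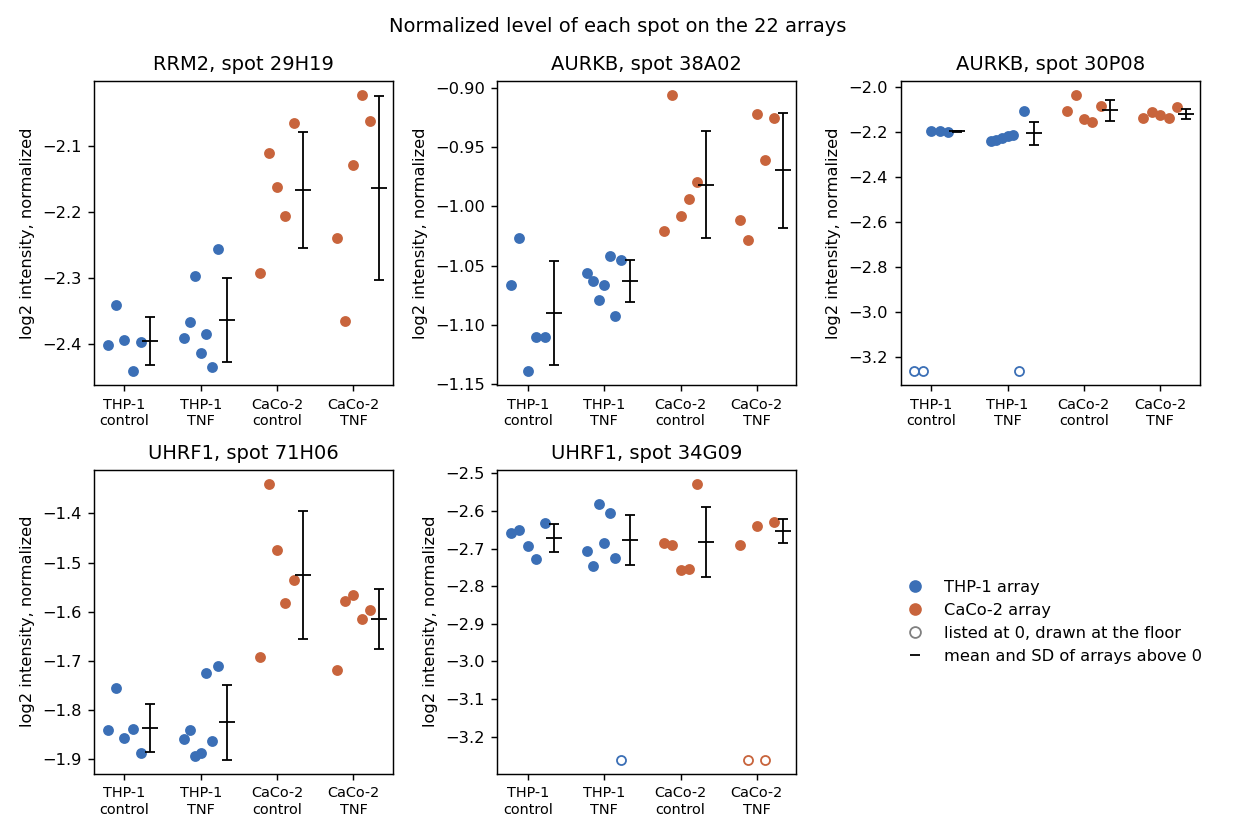
Normalized log2 intensity (y axis, its range set per panel) of each member spot on the 22 arrays by group (x axis), with open circles for readings listed at 0 and bars for the mean and SD of arrays above 0. The RRM2, brighter AURKB and brighter UHRF1 spots lie higher in CaCo-2 in both conditions, while the UHRF1 spot 34G09 overlaps between all groups.

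These differences were set against the other spots measured on every array. Over the 7751 spots above 0 on all TNF-treated arrays, the median size of the line difference was 0.048 and the highest 5% exceeded 0.137. RRM2 at 0.20 and UHRF1 at 0.21 were beyond that mark, and AURKB at 0.094 was below it. An unadjusted p under 0.05 with CaCo-2 higher was found for 6.78% of all 34560 spots and for 11.7% of the 7751 spots above 0 on all of these arrays. The 3 brightest member spots were among them, with p = 0.00884 for RRM2, p = 0.00127 for AURKB and p = 0.000452 for UHRF1 from limma. In the unstimulated arrays, which chose the genes, 0.449% of 34559 spots passed after adjustment and 3.97% of 9074 spots had all CaCo-2 arrays above all THP-1 arrays.

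The separation between the lines depended on normalization. As deposited, RRM2 intensities were 0.189 to 0.205 in THP-1 control and 0.192 to 0.232 in CaCo-2 control arrays, so the groups overlapped. The AURKB spot 38A02 read 0.475 to 0.493 in THP-1 TNF and 0.436 to 0.538 in CaCo-2 TNF arrays. The UHRF1 spot 71H06 read 0.271 to 0.301 in THP-1 TNF and 0.270 to 0.370 in CaCo-2 TNF arrays. In these TNF-treated arrays 4 of the 5 CaCo-2 values of each spot lay above every THP-1 value, and for AURKB and UHRF1 the fifth lay below them all. Among the TNF-treated arrays the lowest AURKB reading was that of CaCo-2 TNF replicate 6, the array with the lowest top intensity of the 22, 133.4, against up to 145.1. The lowest AURKB reading of all, 0.416, was on CaCo-2 control replicate 5, whose top intensity was 134.6.

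**Figure D2:**
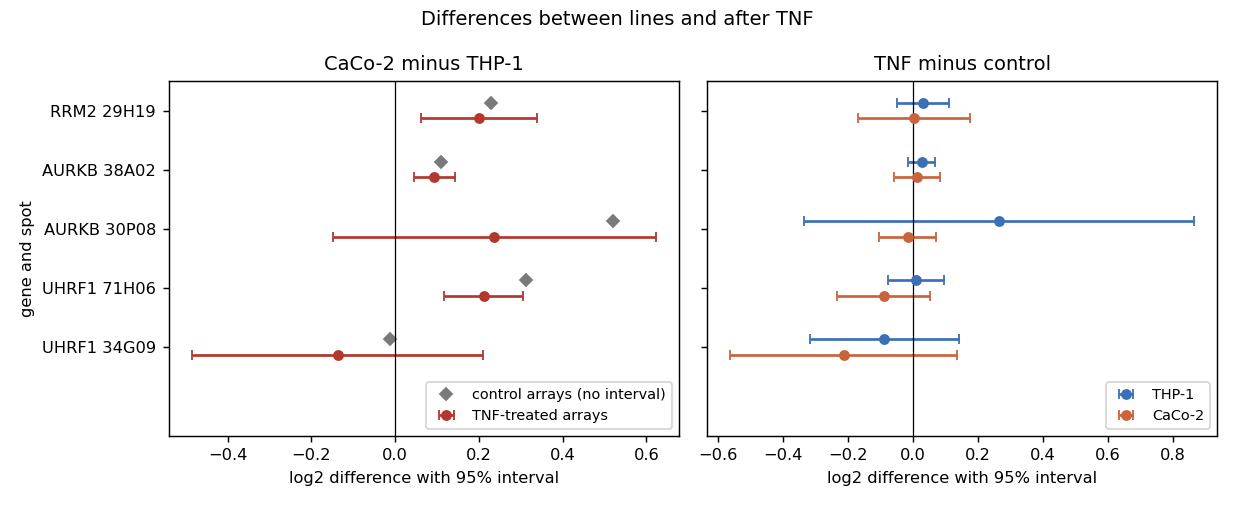
Log2 differences (x axis) for each member spot (y axis), CaCo-2 minus THP-1 on the left and TNF minus control on the right, with 95% intervals for the tested comparisons. The intervals for RRM2, AURKB 38A02 and UHRF1 71H06 between the lines in TNF-treated arrays lie above 0, and every interval for TNF spans 0.

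TNF for 60 min moved none of the 5 spots past the test in either line. The control arrays of these comparisons are those in which the genes were chosen, so choosing genes for a high level in CaCo-2 control arrays favours values below 0 in CaCo-2 and above 0 in THP-1. The p-values and intervals that follow are not independent of that choice. In CaCo-2 the difference, TNF minus control, was 0.0037 ± 0.077 for RRM2, 0.012 ± 0.031 for AURKB 38A02 and -0.090 ± 0.064 for UHRF1 71H06 (SE, 5 against 5 arrays). The 95% intervals ran from -0.17 to 0.18, from -0.059 to 0.083 and from -0.23 to 0.054. The adjusted p-values from limma were 1, 1 and 0.949, and 0.0434% of all spots passed. Of the UHRF1 arrays, CaCo-2 TNF replicate 1 was below every CaCo-2 control array and the others fell within their range.

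In THP-1 the differences were 0.032 ± 0.036 for RRM2, 0.027 ± 0.019 for AURKB 38A02 and 0.011 ± 0.039 for UHRF1 71H06 (SE, 7 against 5 arrays). The intervals were -0.048 to 0.11, -0.014 to 0.068 and -0.076 to 0.097. Adjusted p-values from limma were 0.958, 0.958 and 1, and 0.0145% of all spots passed. The control arrays in these intervals helped choose the genes, so the ends of the intervals are no bound on a change with TNF. No comparison of size with the line differences is drawn from them. The dimmer spots gave 0.27 ± 0.272 for AURKB 30P08 and -0.088 ± 0.104 for UHRF1 34G09 in THP-1, and -0.016 ± 0.039 and -0.21 ± 0.154 in CaCo-2, with readings at 0 held at the floor.

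The line difference in TNF-treated minus that in control arrays, an interaction term over all 22 arrays, was -0.028 ± 0.084 for RRM2, -0.015 ± 0.038 for AURKB 38A02 and -0.10 ± 0.076 for UHRF1 71H06 (SE). The control part of this term is the difference that chose the genes, and choosing genes for a high value there favours values below 0. The 3 values are therefore a description with no test. The limma fit called 0 of the 34559 spots (0%), and 1443 of them (4.18%) were under 0.05 before adjustment.

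**Figure D3:**
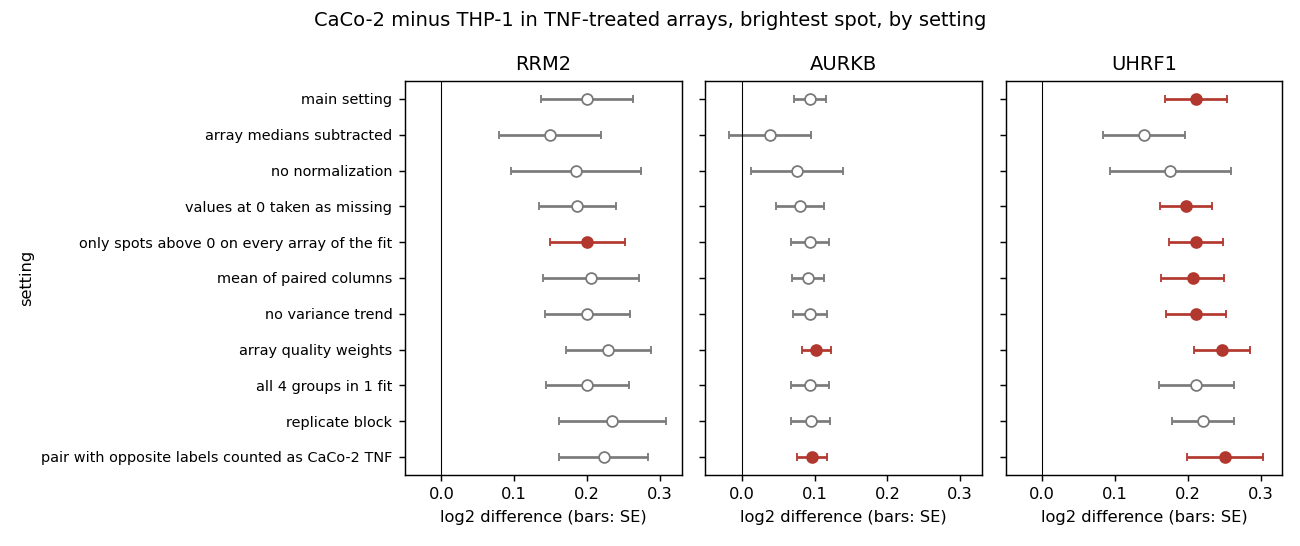
Log2 difference between CaCo-2 and THP-1 in TNF-treated arrays (x axis, bars are the SE) for the brightest spot of each gene under the main and 10 other settings (y axis), filled where the adjusted p was under 0.05. All values lie above 0, from 0.149 to 0.235 for RRM2, 0.039 to 0.10 for AURKB and 0.139 to 0.251 for UHRF1 in the other settings.

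Across the 22 arrays the 3 brightest spots varied together. Pearson's r was 0.870 between RRM2 and AURKB, 0.853 between AURKB and UHRF1 and 0.793 between RRM2 and UHRF1. With the group means removed, r was 0.634, 0.653 and 0.404. The 22 arrays include the control arrays whose line difference chose the genes. That choice favours a high r where the group means are kept. The points also share the membrane and its normalization, so these values and the likenesses that follow are a description. Likeness was taken from r with the group means kept, out of 2838 spots above 0 on every array. Named genes most like RRM2 were GATB (0.920), SLAMF8 (0.912), EBP (0.909) and SCRN2 (0.903). Those most like AURKB were SLAMF8 (0.945), KU-MEL-3 (0.892), LMAN2 (0.884) and PITHD1 (0.877). For UHRF1 they were Ctsl (0.898, so spelled in the annotation), NISCH (0.894), TUBB3 (0.884) and PCNX4 (0.882). None of these is a gene of the lists described next.

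Other genes of the same processes were taken from 4 lists, with each gene read from its brightest spot. Nucleotide supply, the surroundings of RRM2, had 8 of 34 genes on the membrane. In the TNF-treated arrays 0 of the 8 passed in either direction, and the median difference, CaCo-2 minus THP-1, was -0.0083 against 0.0071 over all spots. Apart from RRM2, the genes with the smallest p were DUT, the dUTPase that keeps uracil out of DNA (-0.37 ± 0.180), PFAS and PAICS, enzymes of purine synthesis (-0.34 ± 0.181 and 0.10 ± 0.083, SE). DUT was above 0 on 2 of 5 CaCo-2 and 6 of 7 THP-1 arrays, so its value rests on the floor. So does that of PFAS, above 0 on 3 of 5 and 7 of 7 arrays. In the control arrays the PFAS difference was 0.20 ± 0.298 (SE). PAICS was above 0 on 5 of 5 and 6 of 7 TNF-treated arrays.

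Of the chromosomal passenger complex and mitotic kinases, 17 of 30 genes were measured, and 0 passed in either direction in the TNF-treated arrays. At an unadjusted p under 0.05, 4 were higher in CaCo-2 and 0 lower, against 6.78% of all spots higher. The same count was 1 higher and 0 lower for nucleotide supply, 2 higher and 0 lower for DNA methylation, and 1 higher and 2 lower for the E2F list, where 12% of all spots were under 0.05 in either direction. The 4 mitotic genes were AURKB, itself a chosen gene, and CCNB1, MAD2L1 and CDCA8, whose sizes rest on readings at the floor. RRM2 is the 1 of nucleotide supply and UHRF1 is 1 of the 2 of DNA methylation, so these counts include the chosen genes. CCNB1, the cyclin of mitotic entry, had a difference of 0.36 ± 0.131 and was above 0 on 5 of 5 CaCo-2 but 2 of 7 THP-1 arrays. MAD2L1, a spindle checkpoint protein, had 0.84 ± 0.329 and was above 0 on 5 of 5 and 3 of 7 arrays. CDCA8, the borealin subunit that sits with AURKB in the passenger complex, had 0.18 ± 0.083 (SE), above 0 on 4 of 5 and 3 of 7. The adjusted p-values from limma were 0.266, 0.310 and 0.404. The median over the list was 0.056.

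In the maintenance of DNA methylation, 18 of 27 genes were measured and 1, UHRF1 itself, passed, with 0 lower. The median was 0.056. USP7, a deubiquitinase that stabilises UHRF1 and DNMT1, had 0.12 ± 0.032 (SE) with an adjusted p of 0.133 from limma and was above 0 on every array. UHRF2, the close relative of UHRF1, had -0.52 ± 0.260 and was above 0 on 3 of 5 CaCo-2 and all 7 THP-1 arrays. HELLS, a chromatin remodeller of DNA methylation, had 0.075 ± 0.052 (SE). None of these 3 passed.

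Of E2F factors and genes of cell cycle exit, 19 of 38 were measured and 0 passed in either direction, with a median of -0.019. FOXM1, an activator of mitotic genes, had -0.37 ± 0.087 (SE), lower in CaCo-2, with an adjusted p of 0.0891 from limma, but it was above 0 on 2 of 5 CaCo-2 against 7 of 7 THP-1 arrays. E2F5, a repressor E2F, had 0.85 ± 0.325 and was above 0 on 5 of 5 CaCo-2 but 3 of 7 THP-1 arrays, so its size also rests on the floor. E2F4, another repressor E2F, had -0.057 ± 0.026 (SE) and was above 0 on every array. CCNE2, a cyclin of entry into S phase, had -0.78 ± 0.318 (SE). It was listed at 0 on all 5 CaCo-2 arrays, so its value is no measure of size. TNF moved 0 genes of the 4 lists past the test in either line.

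**Figure D4:**
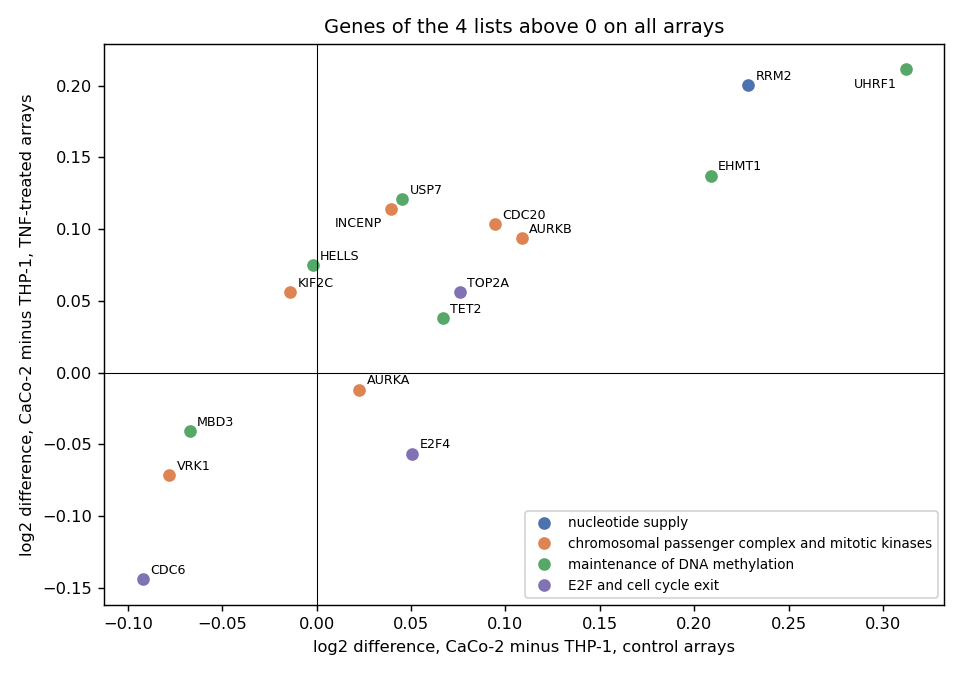
Log2 difference between CaCo-2 and THP-1 in control arrays (x axis) and in TNF-treated arrays (y axis) for the 16 list genes above 0 on all arrays, coloured by list. Both differences are above 0 for 9 genes, both below 0 for 3 and opposite for 4. The 9 include RRM2, AURKB and UHRF1, which were chosen by the x-axis difference, so their place on that axis is no result. Over all spots above 0 on every array of both groups, 56.7% had a difference above 0 in control and 59.8% in TNF-treated arrays. On the y axis UHRF1 and RRM2 have the highest values.

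The labelled cell types were checked against markers. In the TNF-treated arrays, of 16 monocytic markers 6 were measured, and LAPTM5 and CYBB passed, lower in CaCo-2 with differences of -1.23 and -0.76 and adjusted p-values of 0.0360 and 0.0426 from limma. Both were above 0 on all 7 THP-1 and 1 of 5 CaCo-2 arrays. The other 4 did not pass, and CSF1R (0.23 ± 0.255) and TYROBP (0.20 ± 0.190, SE) had values above 0, higher in CaCo-2. In the control arrays LAPTM5 passed as well, at -1.54 with an adjusted p of 3.06e-07 from limma. It was above 0 on 0 of 5 CaCo-2 and 5 of 5 THP-1 control arrays, so its size and p rest on the floor. CYBB did not pass there, at -0.39 ± 0.285 (SE, adjusted p = 0.626 from limma), above 0 on 2 of 5 CaCo-2 and 4 of 5 THP-1 arrays. The summed intensity of the 6 ran from 1.11 to 1.64 in THP-1 TNF and from 0.652 to 1.51 in CaCo-2 TNF arrays. Of 16 epithelial markers 4 were measured and 0 passed, and their summed intensity, 1.80 to 2.13 in THP-1 and 1.51 to 1.92 in CaCo-2, was not higher in CaCo-2. In the control arrays 1 epithelial marker passed against the label: ELF3 was lower in CaCo-2 at -0.19 ± 0.019 (SE, adjusted p = 0.00134 from limma), listed at 0 on all 5 CaCo-2 arrays and above 0 on all 5 THP-1 arrays. Fibroblast and endothelial markers, 8 of 11 measured, had 0 calls and sums of 1.69 to 2.38 and 1.53 to 2.38, and 1 of 8 lymphocyte markers was measured, with 0 calls. Whether these markers bear on the member spots was not tested. Over the 22 arrays 32.0% to 39.6% of spots were listed at 0 and the 22 arrays set the precision of the values.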

How the data were processed

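Per the labels' protocols, mRNA of both lines was copied into 33P-labelled cDNA and hybridised to nylon cDNA membranes. The authors deposited array intensities on a linear scale. How images were read and scaled is not given in the sources used. Of 33 deposited columns, 11 hold sums at about 3 times the scale of the 22 single ones. For 10 of them a single column holds the same hybridization: 9 such pairs were counted once through the single column and 1 pair with opposite labels was left out. THP-1 control replicate 3, a sum with no partner, was divided by 3.

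Negative codes were set to missing, and no member spot had one. A value of 0 was raised to the lowest positive value of its array; the sources do not say what 0 means. Of 110 member readings 6 were 0. Of the 4 with a summed column, 3 held a value in that sum of about 3 readings, 0.2229, 0.2113 and 0.1286. On the single scale these are 0.0743, 0.0704 and 0.0429, under the median single reading of the spot on the group's other arrays, 0.2253, 0.2175 and 0.1547. Intensities were then log2 transformed and quantile normalized over 22 arrays. Array medians had departed from their middle by -0.30 to 0.24.

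Linear models were fitted with limma 3.58.1 in R 4.3.3 (lmFit, then eBayes allowing the variance to depend on level) and checked on simulated data. The planned design was kept. Same-numbered arrays did not pair as a rule: 10 of 25 pairs correlated above 0.1, among them CaCo-2 control and TNF replicate 1 at 0.67. The main fits held no block, and batches shared across groups were not tested.

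Of the spots, 18025 carry 1 symbol, 858 several and 15677 none in the platform annotation. Named were every member spot, up to 4 genes per list with the smallest p between the lines in TNF-treated arrays (brightest spot), and the 4 genes most like each member. Members, lists and tests were chosen with earlier results of these data known. Sequences are from RefSeq.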

Additional observations from a re-analysis of the deposited data

Results flagged for a closer look

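The AURKB spot 30P08 on THP-1 TNF replicate 8 stood at -2.10, apart from the 5 other THP-1 TNF arrays above 0, which ran from -2.24 to -2.21. Of the 18 sets of member values with 4 to 10 arrays that were examined for a distant array, this was the 1 found, where chance gives 0.9. After normalization this array also had the highest THP-1 TNF level of the RRM2 spot and of the UHRF1 spot 71H06. As deposited it did not stand apart: 30P08 read 0.2183, inside the 0.2149 to 0.2277 of that group, RRM2 0.195 against a highest 0.216, and UHRF1 71H06 0.291 against a highest 0.3013. It was listed at 0 at 39.6% of spots, the highest share of the 22 arrays, UHRF1 spot 34G09 among them.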

How the results depend on the processing

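The line difference in TNF-treated arrays was above 0 for the brightest RRM2, AURKB and UHRF1 spots under all 10 other settings and with each of 12 arrays left out, and no called value changed sign. Without each array in turn it ran from 0.165 to 0.251 for RRM2, 0.082 to 0.109 for AURKB and 0.199 to 0.237 for UHRF1. The UHRF1 call was lost at 0.139 with array medians subtracted, 0.176 without normalization, 0.21 with all 4 groups in 1 fit and 0.22 with the replicate block, while RRM2 passed at 0.20 with only spots above 0, and AURKB at 0.10 with array weights and at 0.097 with the opposite-label pair as CaCo-2 TNF, a setting added after seeing the data. Calls over all spots between the lines in TNF-treated arrays, 432 in the main setting, numbered 149 without normalization, 104 with 0 as missing (at least 2 arrays above 0 a group, added after seeing the data), 163 with the replicate block and 115 to 336 without 1 array. Between the lines in control arrays, 155 calls (97 higher in CaCo-2, 58 lower) became 40 (9 and 31) with medians subtracted, 26 (5 and 21) without normalization, 13 (4 and 9) with 0 as missing, 342 with array weights and 175 to 469 without 1 array. TNF calls in CaCo-2, 15, became 1 without normalization, 0 with only spots above 0 or with readings of 0 left out (193 and 725 at an unadjusted p under 0.05), 23 with paired columns averaged, 2 with the block, 6 with the opposite-label pair and 28 to 51 without 1 array. In THP-1, 5 became 1 with medians subtracted, 1 without normalization, 0 with 0 as missing, only spots above 0 or all groups in 1 fit (917, 299 and 1098 unadjusted), 13 with weights, 72 with the block and 5 to 20 without 1 array. The interaction, 0, became 1 with the block and 0 to 12 without 1 array. The causes were not tested. The replicate block changed no other call of the members; same-numbered arrays correlated at -0.49 to 0.67 over 6401 spots, and 3 of 25 pairs correlated best with their own number.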

Other observations

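The pair of columns with opposite labels was left out of every main comparison. Its single column, labelled CaCo-2 TNF replicate 3, held deposited intensities of 0.231 at the RRM2 spot, 0.500 at the AURKB spot 38A02 and 0.365 at the UHRF1 spot 71H06. Its summed column, labelled CaCo-2 control replicate 8, held 0.652, 1.48 and 1.01, on about 3 times that scale. At the UHRF1 spot 34G09 the single column held 0 and the summed column 0.144.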
